A study of Mus musculus with 17 samples.

Results

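Genes of cholesterol synthesis and of fatty acid synthesis were followed across 17 arrays of sorted mouse skeletal progenitors. The 28 genes of the list code for 7 enzymes of the mevalonate pathway and 11 enzymes that make squalene and carry it on to cholesterol. They also code for 6 enzymes of fatty acid synthesis, and the regulators Srebf2, Srebf1 and Insig1 with the sterol carrier Stard4. Their values were taken from probe sets that the platform annotation pairs with 1 of these symbols alone. Of the 28 genes 27 had such a probe set, 62 probe sets in all, and the 27 genes passed the filter on low signal, among 14504 genes tested of 18193 with a named probe set. Acat2 was not analysed here. Where a gene had several probe sets, the one of highest mean was used. Values are log2 signals, so that a difference of 1 is a doubling.

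RNA came from mouse skeletal stem cells (mSSC) and from their progeny, bone cartilage and stromal progenitors (mBCSP), both sorted from femora of C57BL/6 females. Mice were ovariectomized (OVX) or sham operated when 8 weeks old and had a pinned transverse femoral fracture after 6 more weeks. OVX + E2 mice carried a pellet of 0.18 mg 17β-estradiol from the time of ovariectomy, and callus was taken on day 7 after fracture. Callus arrays came from OVX + E2 mice (n = 2), OVX mice (n = 2), sham mice (n = 4), mice whose labels conflict, with OVX in the title and sham surgery in the treatment field (n = 2), and mice of unstated surgery (n = 2), while uninjured bone came from OVX mice (n = 2) and sham mice (n = 3). The groups hold 9 mSSC and 8 mBCSP arrays, and the labels do not say whether arrays came from separate mice, so p-values measure the spread between arrays, which may be technical.

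The arrays carry titles of 3 forms, whose meaning no source gives. Condition-first codes (6 arrays, OVX + E2, OVX and sham) cover callus alone, three-letter codes (7 arrays) cover sham and conflicting callus and OVX and sham uninjured bone, and population-first codes (4 arrays) cover callus of unstated surgery and sham uninjured bone. The form was therefore a term in each fit, and callus was compared with uninjured bone inside the three-letter and the population-first arrays. Where 4 three-letter callus values are given, they stand in the order sham mSSC, sham mBCSP, conflicting mSSC and conflicting mBCSP. The 3 three-letter uninjured values stand in the order OVX mSSC, OVX mBCSP and sham mSSC, and each population-first pair as mSSC and mBCSP.

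The sort markers were checked on the arrays, and several went against the sort. Eng, which codes for CD105, the marker that mBCSPs carry, lay between 7.36 and 8.42 on the mSSC arrays and between 8.40 and 9.97 on the mBCSP arrays. Ptprc, which codes for CD45 of blood cells, lay between 6.58 and 13.53 on the callus arrays and between 13.79 and 14.74 on the uninjured arrays, although cells with CD45 had been sorted out. Tek, which codes for the endothelial receptor Tie2 that the sort also excludes, stood at 9.88, 11.70 and 10.48 on the sham callus, conflicting callus and OVX uninjured mBCSP arrays of three-letter codes and at 7.81 or less elsewhere. Col2a1, the collagen of cartilage, stood at 10.20 and 10.71 on the population-first uninjured mSSC and mBCSP arrays and at 14.19 or more on the other 15. The callus mBCSP array of unstated surgery correlated with the other arrays at Spearman coefficients of 0.815 to 0.885, against 0.958 or more among the condition-first arrays.

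Cholesterol is built from acetyl-CoA through mevalonate, isoprenoid units, squalene and lanosterol. The transcription factor SREBP-2, the product of Srebf2, raises transcription of nearly every enzyme of this route, and SREBP-1, the product of Srebf1, mainly that of the fatty acid enzymes. When membranes of the endoplasmic reticulum hold much sterol, INSIG proteins keep both precursors there. When sterol is low, the precursors move to the Golgi, where proteases free the active factors. In humans, inherited defects of late enzymes of the route (DHCR7, EBP and NSDHL among them) malform the skeleton.

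Promoter sequence was available for 22 of the 28 genes, in 27 windows of 250 bases before and 50 after the annotated start (RefSeq, GRCm38.p6). The windows of 6 genes that were called higher in callus are shown over the 180 bases before the start, chosen after the matches were seen, as examples of how the motifs lie. Capitals mark the sterol regulatory element core TCACNCCAC, the E-box CACGTG, the CCAAT box CCAAT and the GC box GGGCGG on either strand, some of which overlap (the other strand reads ATTGG for the CCAAT box and CCGCCC for the GC box).
Hmgcs1 (chr13:119690171-119690350, plus strand): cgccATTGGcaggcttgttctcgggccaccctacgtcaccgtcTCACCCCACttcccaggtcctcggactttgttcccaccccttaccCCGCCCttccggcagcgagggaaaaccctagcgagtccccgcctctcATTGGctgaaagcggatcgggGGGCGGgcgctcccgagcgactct
Lss (chr10:76531425-76531604, plus strand): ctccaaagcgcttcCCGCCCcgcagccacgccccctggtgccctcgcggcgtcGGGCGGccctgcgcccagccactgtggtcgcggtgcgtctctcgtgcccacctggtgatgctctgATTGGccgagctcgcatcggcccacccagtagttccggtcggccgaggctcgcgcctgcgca
Cyp51 (chr5:4104698-4104877, minus strand): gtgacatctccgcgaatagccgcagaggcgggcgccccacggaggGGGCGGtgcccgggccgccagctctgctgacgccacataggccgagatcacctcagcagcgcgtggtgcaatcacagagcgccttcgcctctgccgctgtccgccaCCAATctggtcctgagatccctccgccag
Dhcr7 (chr7:143830034-143830213, plus strand): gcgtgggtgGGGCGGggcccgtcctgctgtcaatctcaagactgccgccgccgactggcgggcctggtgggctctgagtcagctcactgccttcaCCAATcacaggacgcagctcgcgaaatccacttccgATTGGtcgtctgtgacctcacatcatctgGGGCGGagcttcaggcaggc
Insig1 (chr5:28071232-28071411, plus strand): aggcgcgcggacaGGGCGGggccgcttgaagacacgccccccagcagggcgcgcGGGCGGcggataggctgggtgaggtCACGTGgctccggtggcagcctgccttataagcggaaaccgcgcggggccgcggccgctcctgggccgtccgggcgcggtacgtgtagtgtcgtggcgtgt
Fasn (chr11:120824548-120824727, minus strand): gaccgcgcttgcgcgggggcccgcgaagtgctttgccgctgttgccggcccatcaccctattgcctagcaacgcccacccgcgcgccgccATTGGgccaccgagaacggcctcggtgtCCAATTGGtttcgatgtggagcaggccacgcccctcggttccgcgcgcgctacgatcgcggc

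CCAAT was found in windows of 19 of the 22 genes (86.4%), and in 20 of the 27 windows (74.1%), against 37.4% of all 32851 windows of that length. GGGCGG was found in windows of 18 genes, and again in 20 of the 27 windows (74.1%), against 35.7% of all windows. CACGTG was found in 4 genes (Hsd17b7, Sc5d, Dhcr7 and Insig1), 14.8% of the windows against 7.15%. The core TCACNCCAC was found in Hmgcs1 alone, 3.7% of the windows against 1.24%. Acaca and Elovl6, called higher, held none of the 4 motifs, while Mvk, Mvd, Idi1, Tm7sf2, Nsdhl, Ebp and Srebf2, not called, each held both CCAAT and GGGCGG. These are matches of letters and not measured binding sites.

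Each of the 27 genes was above the floor of log2 5.951 on every array. Acly, which makes cytosolic acetyl-CoA from citrate, had the highest mean over the 17 arrays, 12.48, and moved least, between 11.99 and 12.88. Tm7sf2, a sterol reductase, had the lowest mean, 8.03, and Scd1 moved most, between 8.74 and 13.31. Levels of different genes come from different probe sets and are not compared with each other further.

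**Figure D1:**
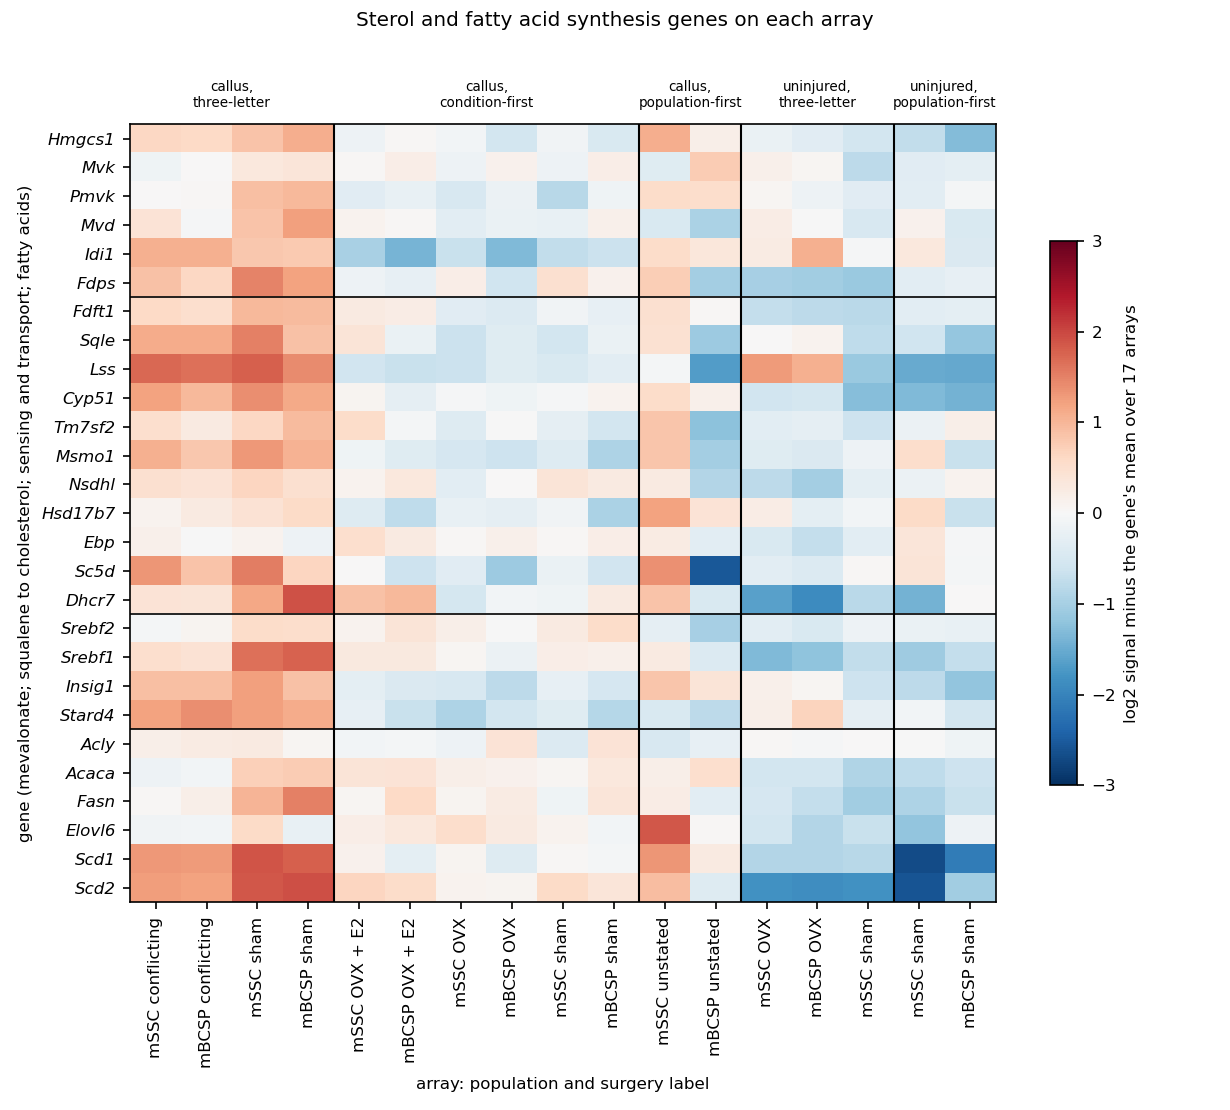
Log2 signal of each of 27 genes (rows, in pathway order) on each of 17 arrays (columns, by array set, population and surgery label) minus that gene's mean over the arrays, red above and blue below it. The 4 three-letter callus arrays are the reddest columns, the 6 condition-first callus arrays lie near the mean, and the 5 uninjured arrays are blue for most genes.

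The first comparison asked how the genes differed between callus and uninjured bone. In callus 17 of 27 genes were called higher (limma, adjusted p under 0.05) and 0 lower, with a median log2 difference of 0.98, where 20.9% of all genes were called higher, 17.9% were called lower and the median over all genes was 0.02. By branch, those called were 3 of 6 mevalonate genes, 7 of 11 genes from squalene synthase on to cholesterol, 2 of 4 genes of sterol sensing and transport, and 5 of 6 fatty acid genes. The largest differences were those of the desaturases, Scd2 at 2.92 (7.56-fold) and Scd1 at 2.73 (6.63-fold). Inside the three-letter arrays, 22 of the 27 genes were higher on all 4 callus arrays than on all 3 uninjured arrays, against 24.7% of all genes. The median difference inside the three-letter arrays was 1.16 (1.27 in mSSC, 0.89 in mBCSP), and inside the population-first arrays 0.57 (0.98 in mSSC, 0.19 in mBCSP), where all genes had 0.01 and 0.05. Inside the population-first arrays, 12 of the 27 were higher on both callus arrays than on both uninjured arrays, against 23.6% of all genes.

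Fitted alone, the 7 three-letter arrays gave 15 genes called higher, of which 12 were among the 17. Of all 14504 genes, 3292 were called on these arrays in either direction. The 4 population-first arrays gave 1 (Scd1), with 1154 called over all genes. The 17 were 13 without the uninjured sham mSSC array of three-letter codes, 20 (15 of them shared) without the 4 population-first arrays (an alternative added after seeing the data), and 22 without the callus mBCSP array of unstated surgery. Calls over all genes were 5626 in the main fit, and 5009, 5553 and 6953 in these settings in turn.

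Of the 31 tested probe sets that were not used for a gene, 16 were called higher in callus and 0 lower, and 27 were above 0. Calls were common over the series too, with 10170 probe sets called in either direction when each was tested on its own. Their share of all probe sets tested was not computed, so how far 16 of 31 exceeds the background was not tested.

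**Figure D2:**
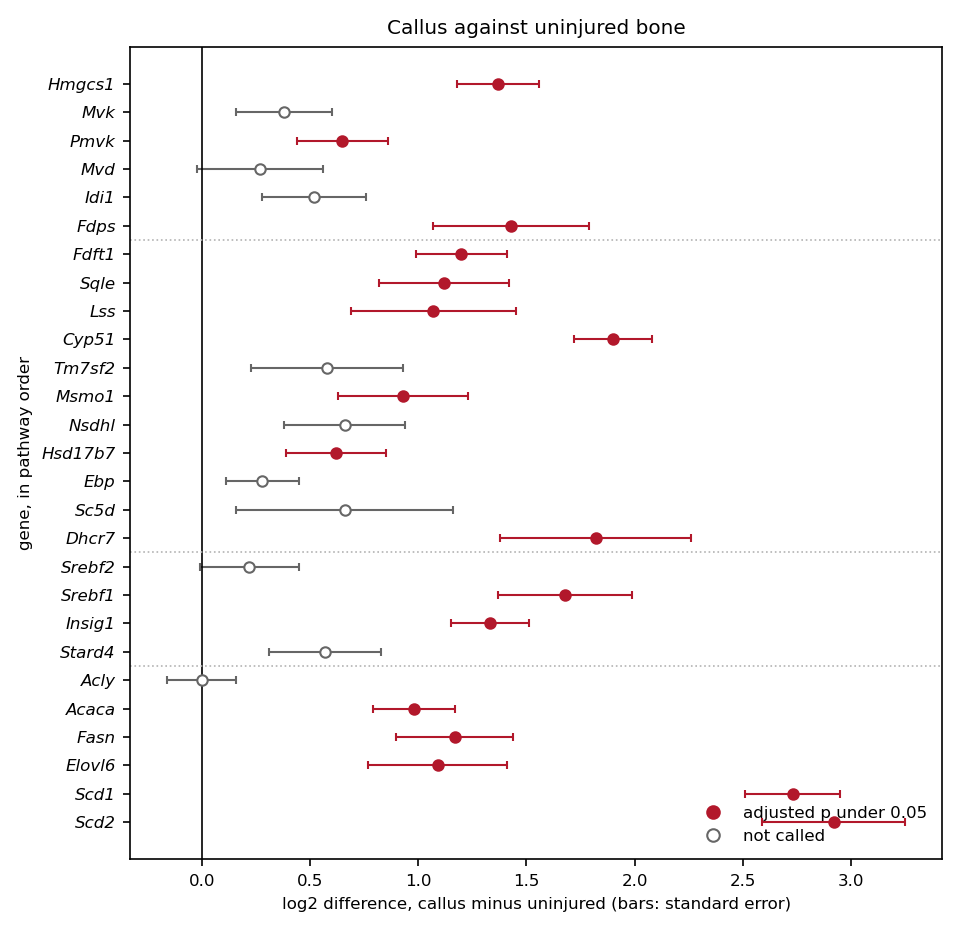
Log2 difference of each of 27 genes between callus (12 arrays) and uninjured bone (5 arrays), with the title form and the population as terms. The 6 condition-first arrays are all callus. With the form as a term, the differences therefore rest on 4 three-letter and 2 population-first callus arrays. Points are the fitted differences, bars their standard errors, and filled red points the 17 genes called, with Scd2 and Scd1 farthest to the right.

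Among the mevalonate genes, Hmgcs1, the synthase that makes HMG-CoA, read 12.79, 13.02, 12.56 and 12.54 on the three-letter callus arrays, against 11.73, 11.59 and 11.39 on the three-letter uninjured arrays, and 13.03 and 12.11 on the population-first callus arrays, against 11.20 and 10.63 on the uninjured ones. The groups did not overlap in either form, and the log2 difference was 1.37 (SE 0.19, adjusted p = 4.07e-05). Fdps, which makes farnesyl diphosphate, read 11.67, 11.41, 11.07 and 10.81 on the three-letter callus arrays, against 9.20, 9.16 and 9.08 on the uninjured ones. The population-first arrays overlapped for this gene, with 10.92 and 9.18 in callus and 9.87 and 9.95 in uninjured bone, and the difference was 1.43 (SE 0.36, adjusted p = 0.00453). Pmvk, the kinase that forms mevalonate diphosphate, read 11.27, 11.33, 10.37 and 10.40 on the three-letter callus arrays, against 10.41, 10.22 and 10.02 on the uninjured ones. Its sham callus values were the high ones and its conflicting callus values lay among the uninjured ones, and the population-first values were 10.91 and 10.90 in callus against 10.04 and 10.31 in uninjured bone (difference 0.65, SE 0.21, adjusted p = 0.0204). Idi1, the isomerase of isoprenoid units, had a difference of 0.52 (SE 0.24, adjusted p = 0.0935), Mvk, mevalonate kinase, 0.38 (SE 0.22) and Mvd, the decarboxylase, 0.27 (SE 0.29), and none of these was called.

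Between squalene and cholesterol, Cyp51, which removes a methyl group from lanosterol, read 12.08, 11.81, 11.89 and 11.65 on the three-letter callus arrays, against 10.11, 10.16 and 9.41 on the uninjured ones, and 11.22 and 10.82 on the population-first callus arrays, against 9.35 and 9.25 on the uninjured ones. Every callus array lay above every uninjured array, also with the condition-first arrays (10.40 to 10.78), and the difference was 1.90 (SE 0.18, adjusted p = 7.79e-07). Fdft1, squalene synthase, read 11.94, 11.91, 11.56 and 11.45 on the three-letter callus arrays, against 10.24, 10.16 and 10.14 on the uninjured ones, and 11.44 and 10.99 on the population-first callus arrays, against 10.63 and 10.66 on the uninjured ones (difference 1.20, SE 0.21, adjusted p = 0.000286). Sqle, squalene epoxidase, read 11.76, 11.13, 11.35 and 11.35 on the three-letter callus arrays, against 10.26, 10.34 and 9.49 on the uninjured ones. On the population-first arrays Sqle overlapped, at 10.69 and 9.14 in callus and 9.65 and 9.07 in uninjured bone (difference 1.12, SE 0.30, adjusted p = 0.00779). Other probe sets of Cyp51 gave 1.30 (adjusted p = 0.0297) and 0.23 (adjusted p = 0.69). Those of Fdft1 gave 1.40 (adjusted p = 0.00217), -0.06 (adjusted p = 0.812) and -0.35 (adjusted p = 0.128), and the last pair was dim, so that the differences of both genes depend on the probe set.

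Dhcr7, the reductase of the last step to cholesterol, read 10.77, 11.53, 10.03 and 10.01 on the three-letter callus arrays, against 8.0, 7.74 and 8.82 on the uninjured ones. The 2 populations of the population-first arrays went apart, with 10.48 in callus against 8.21 in uninjured bone for mSSC and 9.17 against 9.64 for mBCSP (difference 1.82, SE 0.44, adjusted p = 0.00363). Msmo1, a methyl sterol oxidase, read 12.09, 11.84, 11.86 and 11.60 on the three-letter callus arrays, against 10.43, 10.35 and 10.64 on the uninjured ones, but 11.63 and 9.77 on the population-first callus arrays, against 11.32 and 10.12 on the uninjured ones (difference 0.93, SE 0.30, adjusted p = 0.0232). Its difference was thus carried by the three-letter arrays. Hsd17b7, a sterol ketoreductase, read 10.56, 10.70, 10.22 and 10.39 on the three-letter callus arrays, against 10.34, 9.82 and 10.03 on the uninjured ones, and 11.34 and 10.53 on the population-first callus arrays, against 10.69 and 9.45 on the uninjured ones (difference 0.62, SE 0.23, adjusted p = 0.0393). Both sets of Hsd17b7 values overlapped between callus and uninjured bone, and its call was lost in 16 of 32 alternative settings.

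For Lss, lanosterol synthase, the probe sets differed on the uninjured arrays. The probe set used read 12.61, 12.24, 12.54 and 12.47 on the three-letter callus arrays, against 12.11, 11.89 and 9.72 on the uninjured ones, so that the 2 OVX uninjured arrays lay close to callus and the sham one far below (difference 1.07, SE 0.38, adjusted p = 0.037). A second probe set read 11.73, 11.92, 10.98 and 10.74 in callus, against 8.80, 8.70 and 8.59 in uninjured bone, with the OVX and sham uninjured arrays alike, and a difference of 2.23 (adjusted p = 0.000149). A dimmer probe set gave 1.48 (adjusted p = 0.0143). On the population-first arrays the probe set used read 10.77 and 9.15 in callus against 9.32 and 9.29 in uninjured bone.

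Not called between squalene and cholesterol were Nsdhl, a sterol dehydrogenase, at 0.66 (SE 0.28, adjusted p = 0.0729), Sc5d, a sterol desaturase, at 0.66 (SE 0.50), Tm7sf2 at 0.58 (SE 0.35), and Ebp, a sterol isomerase, at 0.28 (SE 0.17). Sc5d stood at 6.80 on the callus mBCSP array of unstated surgery, while the other 16 arrays lay between 8.24 and 10.88. On the three-letter arrays these 4 genes were each higher on all 4 callus arrays than on all 3 uninjured ones, and on the population-first arrays their mean differences were -0.28 for Nsdhl, -0.75 for Sc5d, -0.21 for Tm7sf2 and -0.20 for Ebp.

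Among the regulators, Srebf1 read 11.71, 11.84, 10.57 and 10.51 on the three-letter callus arrays, against 8.74, 8.87 and 9.32 on the uninjured ones, and 10.33 and 9.67 on the population-first callus arrays, against 9.01 and 9.36 on the uninjured ones (difference 1.68, SE 0.31, adjusted p = 0.000403). Insig1, whose product holds SREBP precursors in the endoplasmic reticulum and which is itself a SREBP target, read 12.52, 12.18, 12.20 and 12.19 on the three-letter callus arrays, against 11.44, 11.35 and 10.67 on the uninjured ones, and 12.12 and 11.69 on the population-first callus arrays, against 10.50 and 10.10 on the uninjured ones (difference 1.33, SE 0.18, adjusted p = 2.85e-05). Both genes were higher in callus without overlap in both forms. Srebf2 had a difference of 0.22 (SE 0.23, adjusted p = 0.492), so that its own transcript did not pass the test. Stard4 had a difference of 0.57 (SE 0.26, adjusted p = 0.0942), and of its other probe sets one gave 0.83 (adjusted p = 0.0106) and one 0.28 (adjusted p = 0.568).

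Among the fatty acid genes, Scd2, a stearoyl-CoA desaturase, read 13.94, 14.02, 13.34 and 13.30 on the three-letter callus arrays, against 10.27, 10.22 and 10.28 on the uninjured ones, and 13.02 and 11.71 on the population-first callus arrays, against 9.49 and 11.05 on the uninjured ones (difference 2.92, SE 0.33, adjusted p = 6.34e-06). Scd1, its close relative, read 13.31, 13.20, 12.73 and 12.69 on the three-letter callus arrays, against 10.53, 10.53 and 10.58 on the uninjured ones, and 12.75 and 11.68 on the population-first callus arrays, against 8.74 and 9.33 on the uninjured ones (difference 2.73, SE 0.22, adjusted p = 2.48e-07). On every callus array, condition-first ones included, both desaturases were higher than on every uninjured array. Scd1 was the 1 gene of the 17 that kept its call in each of the 32 alternative settings.

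Fasn, fatty acid synthase, read 10.91, 11.40, 9.91 and 10.06 on the three-letter callus arrays, against 9.38, 9.17 and 8.84 on the uninjured ones, and 10.11 and 9.56 on the population-first callus arrays, against 8.95 and 9.21 on the uninjured ones (difference 1.17, SE 0.27, adjusted p = 0.00235). Acaca, the carboxylase that makes malonyl-CoA, read 11.09, 11.14, 10.22 and 10.30 on the three-letter callus arrays, against 9.84, 9.82 and 9.47 on the uninjured ones, and 10.55 and 10.88 on the population-first callus arrays, against 9.62 and 9.77 on the uninjured ones (difference 0.98, SE 0.19, adjusted p = 0.000764). Elovl6, which lengthens palmitate, read 10.47, 9.66, 9.80 and 9.81 on the three-letter callus arrays, against 9.35, 9.01 and 9.23 on the uninjured ones, and 11.76 and 9.94 on the population-first callus arrays, against 8.71 and 9.75 on the uninjured ones (difference 1.09, SE 0.32, adjusted p = 0.0116). Acly had a log2 difference of 0.00 (SE 0.16, adjusted p = 0.989). Thus 5 of the 6 fatty acid genes were called higher, and the enzyme that supplies cytosolic acetyl-CoA was not.

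**Figure D3:**
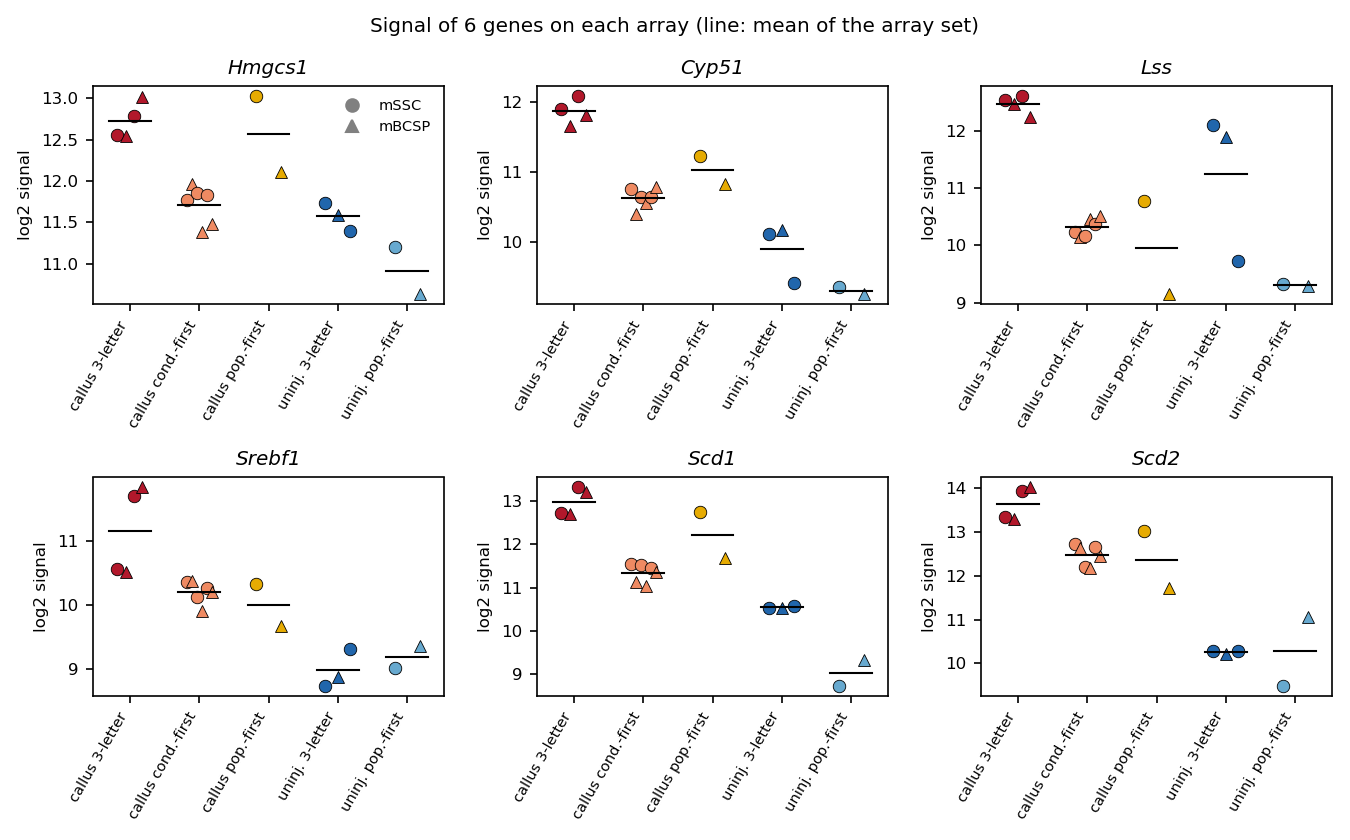
Log2 signal of 6 genes by array set, callus at the left and uninjured bone at the right of each panel, with circles for mSSC, triangles for mBCSP and a line at each set's mean. Cyp51, Srebf1, Scd1 and Scd2 were higher on every callus array than on every uninjured array, Lss had 2 uninjured values close to the three-letter callus values, and the condition-first callus arrays lay below the three-letter ones for each gene.

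Markers of other cell types moved with injury. The mean log2 signal of 9 neutrophil genes lay between 9.16 and 13.49 on callus arrays and between 13.55 and 14.35 on uninjured arrays, that of 7 proliferation genes between 10.22 and 12.28 in callus and between 12.06 and 13.28 in uninjured bone, and that of 4 B cell genes between 7.04 and 10.54 in callus and between 9.16 and 11.09 in uninjured bone. The mean of 8 chondrocyte genes lay between 11.33 and 14.18 on callus arrays and between 8.42 and 11.76 on uninjured arrays, and that of 5 osteoblast genes between 12.11 and 12.65 in callus and between 8.13 and 11.07 in uninjured bone. All 8 chondrocyte and all 5 osteoblast genes were called higher in callus, while 4 of 9 neutrophil genes, 4 of 9 macrophage genes, 2 of 4 B cell genes and 7 of 7 proliferation genes were called lower. No gene of these 6 lists was at the floor on all callus or all uninjured arrays. With the neutrophil mean added to the fit as a covariate, an alternative added after seeing the data, 9 genes stayed called, all among the 17 (Hmgcs1, Fdft1, Cyp51, Dhcr7, Srebf1, Insig1, Acaca, Scd1 and Scd2). In sorted bulk samples a change in the share of a cell type and a change in RNA per cell cannot be told apart. The part of the chondrocyte and osteoblast genes in the result was not tested.

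**Figure D4:**
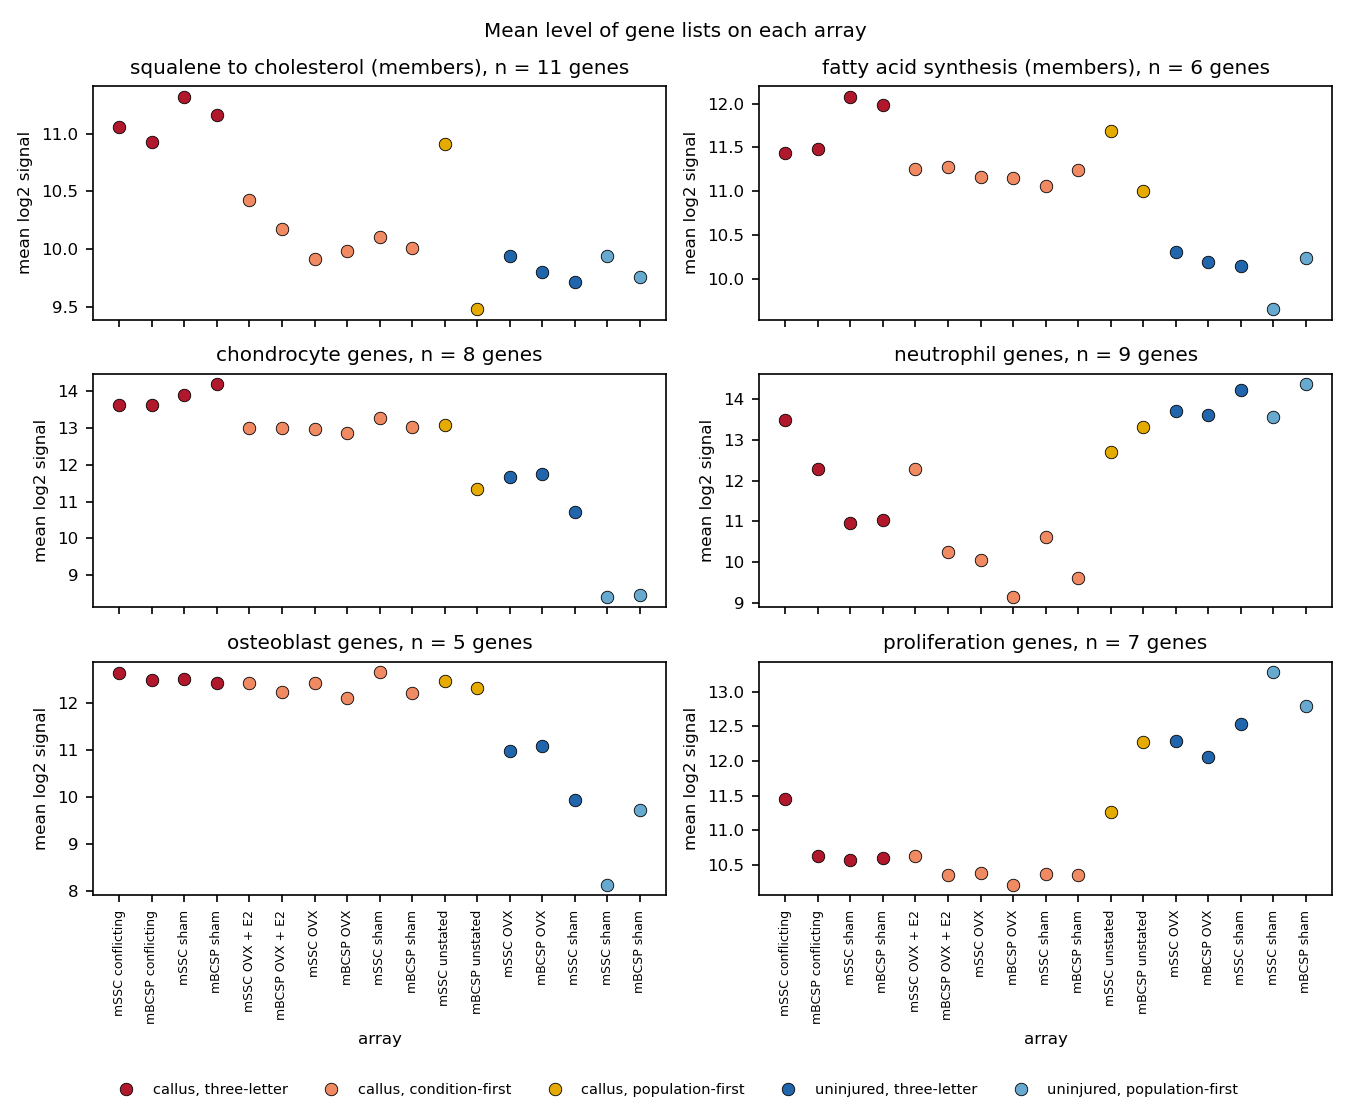
Mean log2 signal of 6 gene lists on each of the 17 arrays, callus sets at the left and uninjured sets at the right, coloured by array set. Osteoblast genes were lower and neutrophil genes higher on every uninjured array than on every callus array, chondrocyte and proliferation genes overlapped through the callus mBCSP array of unstated surgery (11.33 and 12.28), and the conflicting mSSC callus array had a neutrophil mean of 13.49 with a squalene to cholesterol mean of 11.06.

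Fat cells also make fatty acids, and their markers were counted for that reason. Of 6 adipocyte genes tested 0 were called higher in callus and 2 lower (Retn and Cebpa), and Adipoq, which defines adipocytes, lay between the floor of 5.95 and 8.87. The mean of 8 adipocyte genes was between 7.67 and 8.98 on callus arrays and between 7.55 and 9.03 on uninjured arrays.

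Other genes of lipid metabolism were counted by list. Of 9 genes of sterol sensing and uptake 5 were called higher in callus and 0 lower (median 0.93), among them Lrp1, a lipoprotein receptor (2.67, adjusted p = 1.71e-05), Npc1, which exports cholesterol from lysosomes (1.58, adjusted p = 0.00131), Mbtps1, a protease that cleaves SREBPs (0.93, adjusted p = 0.00425) and Insig2 (0.96, adjusted p = 0.00643). Of 19 further genes of fatty acid and lipid synthesis 6 were called higher and 4 lower (median -0.03). Me1, which makes NADPH for fatty acid synthesis, was higher by 3.21 (adjusted p = 2.92e-08), and the desaturases Fads2 and Fads1 by 2.69 (adjusted p = 3.88e-05) and 2.37 (adjusted p = 6.13e-05), while Dgat1, which makes triglyceride, was lower at -1.78 (adjusted p = 0.000176).

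Of 9 genes of LXR and cholesterol efflux 1 was called higher (Cyp7b1, an oxysterol hydroxylase, at 1.84) and 2 lower (Nceh1, a cholesterol ester hydrolase, at -1.82 and Abcg1, a sterol exporter, at -1.51), with a median of -0.13. Of 13 genes of fatty acid oxidation 2 were called higher (Acadvl and Hadh) and 1 lower, Cpt1a, the gatekeeper of mitochondrial import, at -1.53 (adjusted p = 0.000447), with a median of 0.03. Of 3 further sterol enzymes 1 was called higher (Acat1, 0.54).

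The response to fracture was next compared between mSSC and mBCSP. In this interaction 0 of 27 genes were called and 0% of all genes, with 826 genes at an unadjusted p under 0.05, none of them a member. Scd2 had the smallest p, with a response larger by 1.01 in mSSC (SE 0.48, adjusted p = 0.857), then Scd1 with 0.56 (SE 0.33) and Elovl6 with 0.73 (SE 0.48). On the population-first arrays the responses of Scd2 were 3.53 in mSSC and 0.66 in mBCSP, and on the three-letter arrays 3.36 and 3.44.

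Between mSSC and mBCSP themselves 0 of 27 genes were called and 0% of all genes, with 1401 genes and 5 members at an unadjusted p under 0.05. The median difference was 0.14, with 21 of 27 genes higher in mSSC, where 49.8% of all genes were. The 8 pairs of arrays that share group and title form gave 3 genes higher in mSSC in 8 of 8 pairs (Msmo1, Sc5d and Insig1), against 1.43% of all genes. Msmo1 differed by 0.08 to 1.86 (fitted 0.57, SE 0.20, adjusted p = 0.424), Insig1 by 0.01 to 0.43 (fitted 0.24, SE 0.10, adjusted p = 0.48) and Sc5d by 0.10 to 3.91 (fitted 0.95, SE 0.36, adjusted p = 0.447). The value of 3.91 came from the arrays of unstated surgery, and without the mBCSP array of that pair the fitted difference of Sc5d was 0.53 (adjusted p = 0.232). Between the populations 7 of 7 endothelial genes were below 0 (median -2.05, 0 called), and their part in the member differences was not tested.

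Whether ovariectomy and estradiol moved the genes in callus was read mainly from the 6 condition-first arrays, where the 3 groups share a form. Between OVX and sham callus 0 of 27 genes were called and 0% of all genes, with 293 genes and 0 members at an unadjusted p under 0.05. The median was -0.13, with 7 of 27 genes higher in OVX callus, against -0.02 and 47.2% over all genes. Nsdhl had the smallest p and read 10.26 and 10.58 on the OVX mSSC and mBCSP arrays, against 10.96 and 10.85 on the sham ones (difference -0.49, SE 0.33, adjusted p = 1). Insig1 read 10.81 and 10.50 in OVX, against 11.04 and 10.80 in sham callus (difference -0.26, SE 0.20). Fdps read 10.40 and 9.60 in OVX, against 10.67 and 10.31 in sham callus (difference -0.49, SE 0.39). The OVX values of Nsdhl lay below the sham ones, while those of Insig1 and Fdps overlapped them.

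The 2 conflicting callus arrays bear on the same question only if their titles hold. Against sham callus of the same three-letter form they gave a median of -0.36, with 5 of 27 genes higher, where the median over all genes was -0.11 and 41.2% were higher. The lowest were Srebf1 at -1.23, Fasn at -1.17 and Dhcr7 at -1.13. With these arrays counted as OVX, 0 genes were called and the median was -0.21. The neutrophil mean was 13.49 and 12.27 on the conflicting mSSC and mBCSP arrays, against 10.95 and 11.04 on the three-letter sham callus ones. Ptprc read 13.53 and 12.02 on the conflicting arrays, against 9.73 and 9.61 on the sham ones. The part of such cells in the member differences was not tested.

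Between OVX + E2 and OVX callus 0 of 27 genes were called and 0.0207% of all genes (3 of 14504), with 332 genes and 2 members at an unadjusted p under 0.05. The median was 0.26, with 20 of 27 genes higher with E2, against 0.02 and 53.8% over all genes. Dhcr7 read 10.49 and 10.60 on the OVX + E2 mSSC and mBCSP arrays, against 9.10 and 9.53 on the OVX arrays, and 9.50 and 9.89 on sham arrays of this form. Its E2 values lay above both other groups, and the difference from OVX was 1.23 (SE 0.50, adjusted p = 1). Fdft1 read 11.23 and 11.19 with E2, against 10.62 and 10.55 in OVX and 10.84 and 10.70 in sham callus, again without overlap (difference from OVX 0.62, SE 0.20, adjusted p = 1). Sqle read 10.63 and 10.04 with E2, against 9.59 and 9.88 in OVX callus (difference 0.60, SE 0.41). The OVX arrays enter both this comparison and the one with sham.

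Between OVX + E2 and sham callus 0 of 27 genes were called and again 0.0207% of all genes, with 359 genes and 0 members at an unadjusted p under 0.05, and a median of 0.12. Smallest in p were Fdft1 at 0.44 (SE 0.20), Dhcr7 at 0.85 (SE 0.50) and Idi1 at -0.48 (SE 0.34). The neutrophil mean was 12.28 and 10.25 on the OVX + E2 mSSC and mBCSP arrays, 10.06 and 9.16 on the OVX arrays, and 10.63 and 9.62 on the sham arrays of this form. The macrophage mean was 9.85 and 9.73 on the OVX + E2 arrays, 8.72 and 8.08 on the OVX arrays, and 9.25 and 8.48 on the sham arrays of this form. Between OVX + E2 and OVX callus 9 of 9 neutrophil genes (median 1.68) and 8 of 9 macrophage genes (median 1.5) were above 0 and 0 were called, and their part in these differences was not tested.

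In uninjured bone OVX was compared with sham, a contrast that with the form as a term rests on the single sham mSSC array of three-letter codes. None of the 27 genes was called (limma, 0 of 27), against 0.145% of all genes (21 of 14504). Of the members 3 had an unadjusted p under 0.05, a count not set against that over all genes here. The median was 0.26, with 20 of 27 genes higher in OVX, against 0.04 and 53.5% over all genes. Lss had the smallest p, with 12.11 and 11.89 on the OVX arrays, against 9.72 on the three-letter sham array and 9.32 and 9.29 on the population-first sham arrays (difference 2.40, SE 0.48, adjusted p = 0.102). Without either callus array of unstated surgery the Lss difference was 2.31. Lss was called without the form as a term (2.60, adjusted p = 0.0379), where calls over all genes rose from 21 to 485. The second Lss probe set gave a difference of 0.26 (adjusted p = 0.993), with 8.80 and 8.70 on the OVX arrays, against 8.59, 7.89 and 8.50 on the sham ones. The dimmer one gave 1.17 (adjusted p = 0.877), with 7.32 and 7.18 on the OVX arrays, against 6.36, 6.22 and 6.52 on the sham ones. Insig1 had 0.85 (SE 0.24, adjusted p = 0.325) and Cyp51 0.80 (SE 0.28, adjusted p = 0.441). Skeletal markers moved with this comparison. The chondrocyte mean was 11.66 and 11.76 on the OVX mSSC and mBCSP arrays, against 10.71 on the three-letter sham array, and 8 of 8 chondrocyte genes (median 1.21, 1 called, adjusted p = 0.00465) and 5 of 5 osteoblast genes (median 0.71, 0 called) were above 0. Their part in the member differences was not tested.

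The sets of arrays themselves were compared on sham callus, where 2 three-letter and 2 condition-first arrays carry the same labels of surgery, injury and population. On the three-letter arrays 11 of 27 genes were called higher and 0 lower, with a median log2 difference of 1.23, where 1.19% of all genes were called higher, 1.72% were called lower and the median over all genes was -0.02. The called genes were Hmgcs1, Pmvk and Idi1 of the mevalonate pathway, Fdft1, Lss, Cyp51 and Msmo1 of the later route, Srebf1, Insig1 and Stard4 of sensing and transport, and Scd1. Arrays of the same surgery, injury and population label thus differed in 10 of the 21 sterol genes tested and in 1 of the 6 fatty acid genes. The p-values here rest on the scatter between mSSC and mBCSP arrays and not on repeated sets of arrays. Of the 31 tested probe sets not used for a gene, 28 were above 0, but only 3 were called higher and 0 lower. These were of Msmo1, Stard4 and Scd1, and no other probe set of Hmgcs1, Idi1, Fdft1, Lss or Cyp51 was called. With every probe set tested on its own, 609 were called over the series in either direction.

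Insig1 read 12.52 and 12.18 on the three-letter sham mSSC and mBCSP arrays, against 11.04 and 10.80 on the condition-first ones (difference 1.43, SE 0.20, adjusted p = 0.005). Stard4 read 11.93 and 11.80 on the three-letter arrays, against 10.33 and 9.84 on the condition-first ones (1.78, SE 0.29, adjusted p = 0.0107). Lss read 12.61 and 12.24 on the three-letter arrays, against 10.37 and 10.52 on the condition-first ones (1.98, SE 0.38, adjusted p = 0.021). For none of these did the 2 sets overlap, and the same held for the other called genes. The genes were called from these same arrays, so the lack of overlap describes the values and is no separate evidence. Scd1 read 13.31 and 13.20 on the three-letter arrays, against 11.45 and 11.36 on the condition-first ones (1.85, SE 0.32, adjusted p = 0.013). Srebf1 read 11.71 and 11.84 on the three-letter arrays, against 10.27 and 10.21 on the condition-first ones (1.53, SE 0.27, adjusted p = 0.014). Pmvk read 11.27 and 11.33 on the three-letter arrays, against 9.53 and 10.23 on the condition-first ones (1.42, SE 0.25, adjusted p = 0.0144).

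Idi1 read 11.56 and 11.53 on the three-letter arrays, against 10.01 and 10.11 on the condition-first ones (1.49, SE 0.34, adjusted p = 0.0437), and Msmo1 read 12.09 and 11.84 on the three-letter arrays, against 10.40 and 9.87 on the condition-first ones (1.83, SE 0.40, adjusted p = 0.0362). The differences of Hmgcs1, Fdft1 and Cyp51 were 1.25, 1.16 and 1.23 (adjusted p = 0.0357, 0.014 and 0.0156). Of the genes not called, Sqle stood at 1.58 (SE 0.41, adjusted p = 0.0707), Sc5d at 1.47, Dhcr7 at 1.45, Scd2 at 1.42, Tm7sf2 at 1.21, Fasn at 1.16, Mvd at 1.08, Fdps at 1.05 and Hsd17b7 at 1.03, and Acaca (0.54), Mvk (0.32), Nsdhl (0.22), Acly (0.17), Srebf2 (0.15), Elovl6 (0.15) and Ebp (-0.14) stood lower. In mSSC alone 27 of 27 genes were higher on the three-letter array (median 1.15, against 46.1% of all genes and -0.04), and in mBCSP alone 23 of 27 (median 1.21, against 49.2% and 0.00).

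**Figure D5:**
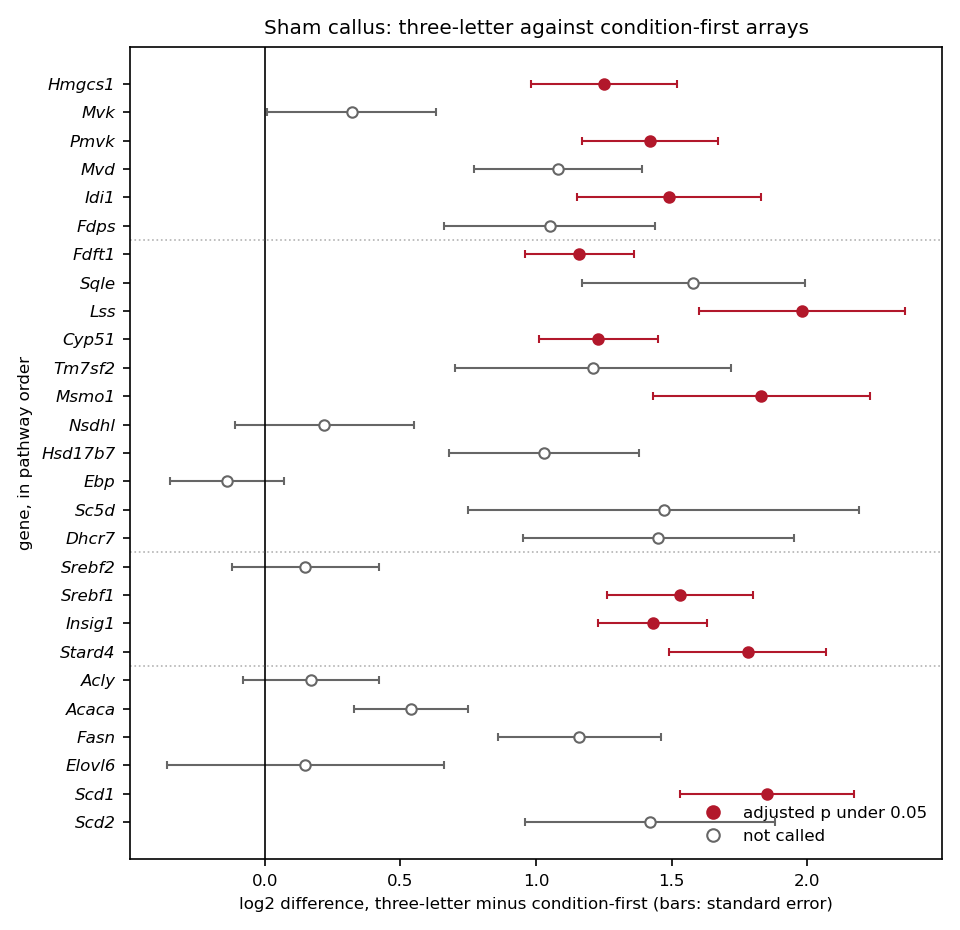
Log2 difference of each of 27 genes between three-letter and condition-first arrays of sham callus (2 against 2 arrays), with standard errors. The 11 called genes (filled red) lie between 1.16 and 1.98, and Ebp is the gene below 0.

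Over callus of any surgery label, 17 of 27 genes were higher on all 4 three-letter arrays than on all 6 condition-first arrays, against 6.52% of all genes. Idi1 lay between 11.53 and 11.82 on those 4 arrays, against 9.37, 9.90 and 10.11 (lowest, median and highest) on the 6 condition-first arrays. The 5 uninjured arrays lay between 10.32 and 11.83 for Idi1, above all 6 condition-first callus arrays. Stard4 lay between 11.80 and 12.08 on the 4 three-letter callus arrays, against 9.76, 10.09 and 10.44 on the condition-first ones. Without the form as a term the Idi1 difference between callus and uninjured bone was -0.29. In turn 8 of 27 genes were higher on all 6 condition-first callus arrays than on all 5 uninjured arrays. That share lay near the 23.2% of all genes. The 8 were Cyp51, Srebf2, Srebf1, Acaca, Fasn, Elovl6, Scd1 and Scd2. No uninjured array has a condition-first code, so injury and form cannot be told apart in this split.

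Leaving out 1 of the 4 sham callus arrays left 1 array on 1 side of the comparison. Nearly all of the 11 calls were then lost, and calls over all genes fell as well. Leaving out a callus array of unstated surgery gave 19 of the 27 genes called. Calls over all genes then rose too, to 1080 or 1084, from 422 with all arrays. Other markers moved with the set too. The mean of the chondrocyte genes was 13.89 and 14.18 on the three-letter sham mSSC and mBCSP arrays, against 13.26 and 13.03 on the condition-first ones, that of the neutrophil genes 10.95 and 11.04 on the three-letter arrays, against 10.63 and 9.62 on the condition-first ones, that of the erythroid genes 8.59 and 8.65 on the three-letter arrays, against 7.46 and 7.10 on the condition-first ones, and that of the endothelial genes 7.02 and 11.07 on the three-letter arrays, against 7.39 and 8.96 on the condition-first ones. Macrophage genes went the other way without overlap, with means of 7.69 and 7.65 on the three-letter arrays, against 9.25 and 8.48 on the condition-first ones (8 of 9 genes below 0, median -0.94). Of these 5 lists 1 chondrocyte gene (Col11a2) and 1 neutrophil gene (Mmp8) were called higher and no other gene was called. The part of the other 4 lists in the result was not tested. With the chondrocyte mean as a covariate, also added after seeing the data, 8 of the 11 genes stayed called. Calls over all genes rose from 422 to 1307 in that setting. Set, mice, RNA preparation and hybridization cannot be told apart from the labels.

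Outside the list, Scarb1, the receptor for high density lipoprotein, was called higher on the three-letter arrays (1.70, adjusted p = 0.0177), as was Me1 (1.01, adjusted p = 0.0407), while Cpt1a was called lower at -1.41 (adjusted p = 0.038). Of the remaining genes of sterol uptake, LXR, lipid synthesis and fatty acid oxidation none was called between the sets.

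Across the 17 arrays the 27 genes varied together. The median correlation between pairs of them was 0.49, against 0.01 between every 7th gene tested and all genes tested, and for the members 0.29 once injury, population and title form were taken out. Fdft1, Cyp51 and Srebf1 followed the mean of the other members most closely (r = 0.92, 0.91 and 0.90), and Acly, Ebp and Mvk least (r = 0.20, 0.27 and 0.27). The median was 0.52 among sterol enzymes, 0.59 among fatty acid genes and 0.42 between these branches. The arrays share sort pairs, groups and forms, so that these values are descriptions.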

How the data were processed

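The deposited table holds log2 signals that the authors had normalized between 17 Affymetrix mouse expression arrays, 1 column an array (the log2 scale was read from the range of the values). According to the methods the RNA was amplified in 2 rounds, the arrays were scanned with GCOS and dChip was used, while the submitters' processing notes name MAS5, so that the tool behind the deposited signal was not settled. Of 45101 probe sets, 64 were controls, 34945 had 1 gene symbol, 932 several and 9160 none, and 34741 of the named ones matched a current gene identifier, with 0 symbols changed. The values were returned to the linear scale, quantile normalized, floored at the 20th percentile (log2 5.951) and taken to log2 again, and a gene entered the tests if 2 or more arrays reached the 40th percentile (7.198). Deposited array medians lay between 7.67 and 7.88, and the number of arrays limits the precision. No 2 arrays held identical values.

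limma 3.58.1 (R 4.3.3) with a variance trend was used, with Benjamini-Hochberg adjustment over 14504 genes and calls at an adjusted p under 0.05. The comparison of callus with uninjured bone and its interaction with population had terms for injury, population and title form. The mSSC and mBCSP arrays of a group and form were a random block (correlation 0.133). Of the 9 blocks 8 were pairs and 1 was the lone sham uninjured mSSC array of three-letter codes. The other comparisons came from a fit by group, population and form with 7 residual degrees of freedom and no block. Its group and form terms fit the mean of each group in each form exactly. The residual spread is thus that of the difference between mSSC and mBCSP arrays over 8 pairs. P-values for surgery or form therefore do not measure a spread between mice or between array sets. The title form as a set of arrays is an assumption. The members and lists were chosen with earlier results of these data known. Named were all members, those called with their arrays, and elsewhere the 3 members of smallest p. Alternatives concerned normalization, floor, filter, probe set, variance moderation, form, block, arrays in the fit, conflicting labels and each array left out, the last with the block correlation held fixed. The scripts were tested on simulated data.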

Additional observations from a re-analysis of the deposited data

Results flagged for a closer look

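In the group of 4 sham callus arrays, 1 value stood apart from the rest by Dixon's test. Srebf2 read 10.57 on the condition-first mSSC array, while the other 3 sham callus arrays lay between 10.84 and 10.87, and the gap was 0.9 of the range (critical value 0.829). Over 27 genes tested in this way, chance flags about 1 in 20.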

How the results depend on the processing

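For callus against uninjured bone the 17 called members became 11 without the form as a term and 1 on the population-first arrays alone. They became 9 with the neutrophil mean as a covariate (added after seeing the data), and 13 to 22 with 1 array left out. Over all genes tested 5626 calls became 5809 without the form term and 1154 on the population-first arrays alone. They became 3292 on the three-letter arrays alone, and 3533 for sham callus against sham uninjured bone in the fit by group over all arrays. With that covariate they were 3261, and with 1 array left out 4907 to 6953. Directions turned for Idi1 (-0.29, no form term), Acly (0.20, three-letter arrays alone), Mvd (-0.54), Tm7sf2 (-0.21), Msmo1 (-0.02), Nsdhl (-0.28), Ebp (-0.20), Sc5d (-0.75), Srebf2 (-0.42) and Stard4 (-0.30) on the population-first arrays alone, and Mvd (-0.07) and Srebf2 (-0.10) with the neutrophil covariate. For the three-letter against the condition-first sham callus arrays, the 11 became 6 without quantile normalization, 7 without the filter, 4 with the widest-range probe sets and 0 to 19 with 1 array left out, and 422 calls over all genes became 278 with those probe sets, 3226 over all 10 callus arrays of both forms (16 members) and 1307 with the chondrocyte covariate (8 members), the last 2 added after seeing the data, and 36 to 1084 with 1 array left out. There Ebp (-0.35 to 0.08) and Acly (-0.20 to 0.54) turned with 1 sham callus array left out, and Nsdhl (-0.31), Sc5d (-0.12), Srebf2 (-0.20) and Elovl6 (-0.64) with the chondrocyte covariate. For OVX + E2 against sham callus the median turned to -0.43 without the form term and -0.28 with the form as a random block, as did Fdft1 (-0.14 and -0.01), and for OVX against sham callus the median was -0.76 and -0.60 under these settings. For OVX against sham in uninjured bone 1 member was called without the form term (485 genes) and 0 to 1 with 1 array left out. The cause was not tested in any of these. The other comparisons had 0 members called under every setting run. The labels carry no replicate numbers to pair by, and arrays were paired only as the mSSC and mBCSP arrays of a group and form, without which as a block the 17 members stayed 17. Not run were the form comparison without its own term and OVX against sham in uninjured bone without the 1 sham three-letter array, which could not be fitted.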
